A study of Mus musculus with 63 samples.

Results

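The proximal side of the imprinted Dlk1-Dio3 domain holds the microRNAs (miRNAs) encoded in and beyond the long noncoding RNA Meg3, across the retrotransposon-derived gene Rtl1 and in an intron of Rian. Members were the loci of the count table that start between bases 109540000 and 109649999 of mouse chromosome 12 (GRCm38), whatever their count. The rule gave 38 of the 2110 loci in the table. In 4 places a locus overlapped another on the opposite strand, and each such pair was counted once, which left 34 members from 20 hairpins between chr12:109544588-109618326.

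Small RNA was sequenced from cells sorted from the kidneys of 16 male C57BL/6 mice aged 8 to 12 weeks. Groups of 4 mice had a sham operation, unilateral ureteric obstruction for 2 days (UUO-2) or 7 days (UUO-7), or 7 days of obstruction followed by reimplantation of the ureter and 14 days of reversal (R-UUO). From each mouse came endothelial cells (ECs, CD45-CD31+), F4/80hi macrophages (Macs, CD45+), proximal tubular cells (PT cells, which bind the lectin LTL) and PDGFR-β+ stromal cells (CD45-CD31-), giving 63 libraries in all. The PDGFR-β+ UUO-7 group had 3 libraries, because the study removed that of UUO-7 mouse 3 as an outlier, and the sequenced mice had been chosen for kidney injury marker levels close to their group mean.

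In this domain the noncoding RNAs and the miRNAs are transcribed from the maternal chromosome, while the protein-coding genes Dlk1, Rtl1 and Dio3 are transcribed from the paternal one. The miRNAs opposite Rtl1 match its transcript perfectly and can direct its cleavage. Domain miRNAs are abundant in embryo, placenta, brain and muscle stem cells and low in most adult organs. PDGFR-β marks pericytes and fibroblasts of the kidney, the cells that give rise to matrix-producing myofibroblasts after obstruction.

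The mature sequences below, taken from RefSeq (GRCm38.p6, in which all 38 loci had an entry), belong to the 5 most abundant members to miR-433-3p and miR-540-3p, with the largest called changes at UUO-7 in PDGFR-β+ cells, and to miR-3544-3p, with the largest in ECs. Capitals mark the seed, bases 2 to 8, which pairs with target transcripts.
miR-127-3p: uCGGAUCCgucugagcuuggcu
miR-434-3p: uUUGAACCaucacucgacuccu
miR-136-3p: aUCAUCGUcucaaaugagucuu
miR-434-5p: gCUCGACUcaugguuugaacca
miR-3071-3p: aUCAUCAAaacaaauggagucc
miR-433-3p: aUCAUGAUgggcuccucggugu
miR-540-3p: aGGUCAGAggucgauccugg
miR-3544-3p: aCUCCUGCaugacgccguuccc

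Among the 34 members there were 32 seeds. The only shared seeds were those of the Mir3070a and Mir3070b hairpins, which are near copies, so that the members do not form a seed family. Outside the domain side, miR-540-3p shared its seed with miR-6915-5p, miR-673-5p with miR-6985-3p and miR-370-5p with miR-1193-3p.

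The overlapping pairs had nearly equal counts on both strands. The locus of miR-3071-3p (3068 counts over all libraries, minus strand, chr12:109595329-109595350) lies over that of miR-136-5p (3032 counts, plus strand, chr12:109595331-109595352), printed here for comparison with the sequence above.
miR-136-5p: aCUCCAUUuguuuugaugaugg
In no library did the counts of a pair differ by more than 4, so the table does not tell the strands apart. The values given under miR-3071-3p and miR-3544-3p may therefore belong in part or whole to miR-136-5p and miR-337-5p, and those of miR-136-3p and miR-337-3p to miR-3071-5p and miR-3544-5p.

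Nearly all counts of the region came from the stretch over Rtl1. The 11 members there held 97.5% of the region's 340959 counts, against 2.10% for the 17 members in Meg3 or between Meg3 and Rtl1 and 0.347% for the 6 in a Rian intron. miR-127-3p (chr12:109592888-109592909, plus strand, opposite the Rtl1 coding sequence) had 258344 counts, 75.8% of the total. miR-434-3p (chr12:109594565-109594586, also opposite the Rtl1 coding sequence) followed with 49639 counts, 14.6%, and miR-136-3p (chr12:109595366-109595387) with 10808 counts, 3.17%. In single libraries miR-127-3p made up between 54.5% and 90.9% of the region, and its median share was alike in the 4 cell types, from 71.8% in Macs to 76.8% in ECs.

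**Figure D1:**
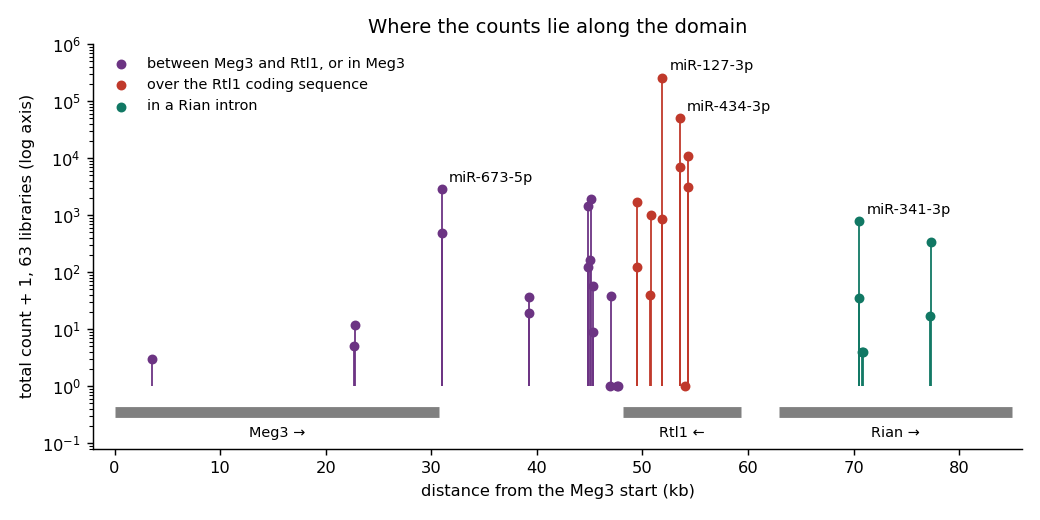
Total count of each of the 34 members over the 63 libraries (vertical log axis, count plus 1) against its distance from the start of Meg3 in kb (horizontal axis). Grey bars are the genes with an arrow for the strand, and Rian runs on past the right edge. The highest peaks, miR-127-3p with 258344 counts and miR-434-3p with 49639, stand over Rtl1.

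Many members had few or no counts. The 2 miRNAs inside a Meg3 exon, miR-1906 and miR-770, gave 2 counts for miR-1906, 4 for miR-770-5p and 11 for miR-770-3p over all libraries. No count was recorded at 4 loci, those of miR-3070-5p (both copies), miR-3070-2-3p and miR-432. A further 12 members were too low for a test in any cell type. These were miR-493-5p (35 counts), miR-493-3p (18), miR-337-3p (123), miR-665-5p (8), miR-665-3p (56), miR-3070-3p (37), miR-431-3p (124), miR-433-5p (39), miR-341-5p (34), miR-1188-5p and miR-1188-3p (3 each) and miR-370-5p (16). That left 15 members with enough counts for a test in the 63 libraries together, 14 in ECs, 15 in PDGFR-β+ cells, 4 in Macs and 2 in PT cells.

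Each hairpin can give a 5′ and a 3′ miRNA, and the arm that dominated differed between hairpins. Over all libraries the 5′ arm held 0.326% of the counts of Mir127 (95% Wilson interval 0.305% to 0.349%), 3.70% of Mir433, 7.63% of Mir540 and 12.4% of Mir434. It held 85.6% of Mir673 (84.4% to 86.7%) and 93.2% of Mir431 (92.0% to 94.3%). These intervals cover counting error only, since the reads carry no molecular identifiers.

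The arm ratio was compared between PDGFR-β+ cells and ECs of the same 15 mice for the 5 hairpins with both arms tested. For Mir434 the log2 ratio of 5′ to 3′ counts was higher in PDGFR-β+ cells (-2.57 ± 1.097, SD) than in ECs (-3.28 ± 0.44) in 14 of 15 mice, a difference of 0.71 ± 1.04 (exact two-sided sign-flip permutation test over mice, p = 0.0209, adjusted over 5 hairpins p = 0.0523). For the Mir136 locus the difference was 0.58 ± 0.87, higher in 11 of 15 mice (exact permutation p = 0.0184, adjusted p = 0.0523). Its 5′ count is the one given above under miR-3071-3p, and if the counts belong to Mir3071 the arms are exchanged and the sign of the difference turns. With at least 10 counts required in each arm and library, the Mir434 difference was 0.94 and positive in 14 of 14 mice (adjusted exact permutation p = 0.000244), and the Mir136 difference was 0.59 over 13 mice (adjusted exact permutation p = 0.0386). Adjusted exact permutation p-values for Mir127, Mir540 and Mir673 were 0.689, 0.415 and 0.824 over the 15 mice.

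The sorted cells differed in how much of their small RNA came from the region. In sham kidneys it made up 0.224%, 0.343%, 0.224% and 0.288% of the 4 EC libraries and 0.0566%, 0.0293%, 0.0516% and 0.0159% of the 4 PDGFR-β+ libraries. All 4 EC values lay above all 4 PDGFR-β+ values. In sham Macs the share ran from 0.000333% to 0.0129% and in sham PT cells from 0.00141% to 0.00566%, all below the lowest PDGFR-β+ library. A share is relative to the rest of a library's miRNAs, and fewer contributing cells within a sorted population cannot be told apart from less RNA per cell.

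The order changed with obstruction. The share in ECs was lower at UUO-2 (0.140% ± 0.051, SD, n = 4) and UUO-7 (0.112% ± 0.042, n = 4) than in sham (0.270% ± 0.058, n = 4), and no library of either obstructed group reached the lowest sham library. In PDGFR-β+ cells it stayed at 0.0360% ± 0.011 (n = 4) at UUO-2 and was 0.766%, 0.406% and 1.05% in the 3 UUO-7 libraries, all above the PDGFR-β+ libraries of the other groups except 1. That library, from R-UUO mouse 1, held 0.577%, while the other R-UUO PDGFR-β+ libraries held 0.0737%, 0.0635% and 0.0294%.

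**Figure D2:**
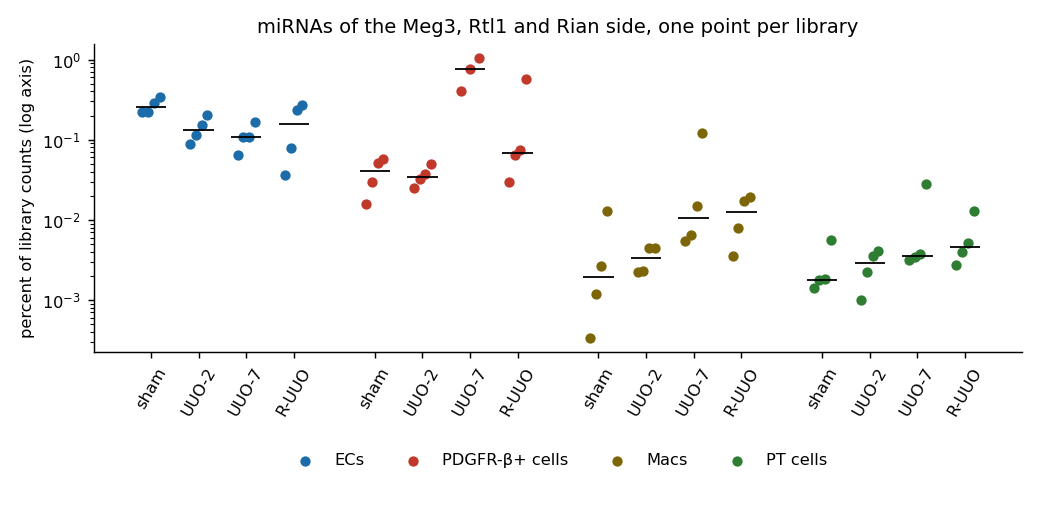
Percent of each library's counts in the 34 members (vertical log axis) for the 4 sorted cell types in each of the 4 conditions, with one point per library and a line at the group median. The 3 PDGFR-β+ UUO-7 libraries lie between 0.406% and 1.05%, and single libraries stand above their group in R-UUO PDGFR-β+ cells, UUO-7 Macs and UUO-7 PT cells.

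Libraries held 616565 to 10819385 counts. A library's floor, the level that 3 counts represent, ran from 0.277 to 1.07 CPM, a count relative to the size of its library, in ECs, from 0.342 to 1.57 in PDGFR-β+ cells, from 0.434 to 2.71 in Macs and from 0.589 to 4.87 in PT cells. The sorted populations carried their own marker miRNAs. The summed level of the endothelial markers miR-126a-3p and -5p was 93099 to 173192 CPM in ECs and at most 3524 CPM in any other library, and the macrophage markers (miR-142a and miR-223) reached 14705 CPM or more in Macs and at most 698 CPM elsewhere. The stromal list (miR-143, miR-145a, miR-199a and miR-214) was 92519 to 400902 CPM in PDGFR-β+ cells but also 7663 to 46035 CPM in ECs. The proximal tubular list was 17301 to 130406 CPM in PT cells and at most 6266 CPM elsewhere. The PT library of R-UUO mouse 1 had 25839 CPM of the stromal list, the most of any PT library, and 17301 CPM of the proximal tubular list, against 36051 to 66067 CPM in the rest of its group. The R-UUO PT cells reached 24913 CPM of miR-143-3p and 759 CPM of miR-145a-5p, against at most 3353 and 16.6 CPM in sham PT cells. miR-199a-3p was at 93.4 to 119 CPM in R-UUO and 94.6 to 115 CPM in sham PT cells. For miR-199a-5p these ranges were 8.10 to 46.4 and 4.43 to 11.7 CPM, for miR-214-3p 0.623 to 10.4 and 0.770 to 4.43 CPM.

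In PDGFR-β+ cells the summed stromal list moved with the groups, at 326479 to 398350 CPM in sham, 145413 to 174163 CPM at UUO-7 and 92519 to 159563 CPM in R-UUO, and its members moved in opposite ways. miR-143-3p, most of the sum, was at 320890 to 392629 CPM in sham and 125343 to 152046 CPM at UUO-7, and miR-145a-5p at 813 to 1644 CPM and 476 to 614 CPM. miR-199a-3p was at 3400 to 4134 CPM in sham and 14176 to 17577 CPM at UUO-7, miR-199a-5p at 499.98 to 571 CPM and 2557 to 3294 CPM, and miR-214-3p at 60.8 to 73.6 CPM and 513 to 664 CPM. No UUO-7 library fell in the sham range of any of the 5, and their part in the results below was not tested.

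In uninjured kidney, 10 of 15 members were lower in PDGFR-β+ cells than in ECs, where 23.1% of the 671 loci tested were lower. A member was called when edgeR's quasi-likelihood test gave a Benjamini-Hochberg adjusted p (over all loci tested) under 0.05 and the fold change exceeded 1.5. miR-127-3p measured 2535, 3608, 2551 and 3113 CPM in the 4 sham EC libraries and 664, 341, 510 and 184 CPM in the 4 sham PDGFR-β+ libraries, with no overlap (log2 difference -2.79 ± 0.79, SE, adjusted p = 0.00349). CPM here are scaled by TMM factors over all 63 libraries, at 0.471 to 0.769 in ECs, 0.622 to 1.09 in PDGFR-β+ cells, 1.37 to 2.01 in Macs and 0.517 to 1.53 in PT cells. Levels set side by side between cell types depend on these factors. The members' median log2 difference between PDGFR-β+ cells and ECs was -2.53 with TMM and -2.52 by library size alone. For ECs against Macs it was 6.57 and 5.56. miR-434-3p showed the same order as miR-127-3p, at 493 to 740 CPM in ECs and 20.2 to 105 CPM in PDGFR-β+ cells (-3.32 ± 0.77). miR-433-3p, reported as a promoter of renal fibrosis downstream of TGF-β, gave 333 counts in the sham ECs and 2 counts in the sham PDGFR-β+ cells. The others lower in PDGFR-β+ cells were miR-673-5p, miR-3544-3p, miR-540-3p, miR-431-5p, miR-127-5p, miR-434-5p and miR-136-3p, with log2 differences from -4.12 to -1.76. The number lower was between 8 and 11 when any library was left out.

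The sham levels in Macs and PT cells were also compared with both. Of the 15 members, 14 were higher in sham ECs than in Macs (32.2% of all loci were) and 11 were higher in PDGFR-β+ cells than in Macs (29.7%). Against PT cells 14 were higher in ECs (30.0% of all loci) and 8 in PDGFR-β+ cells (25.6%). When only the compared groups were fitted, the members higher in PDGFR-β+ cells numbered 4 against Macs and 2 against PT cells. miR-127-3p measured 10.4, 1.79, 4.71 and 64.1 CPM in sham Macs and 24.4, 11.1, 10.0 and 5.62 CPM in sham PT cells. miR-136-3p was at 0 in all 4 sham PT libraries and at 95.1 to 130 CPM in the sham ECs.

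At UUO-7 the region rose in PDGFR-β+ cells. Of 15 members, 14 were higher than in sham, where 34.0% of the 477 loci tested were higher, and none was lower. Their log2 changes ran from 1.68 to 6.95 with a median of 3.86, while the median of all loci tested was 0.50, a difference of 3.36. By library size alone the median of all loci was 1.02 and the members' median lay 3.33 above it. With DESeq2 the values were 0.27 and 3.35.

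miR-127-3p rose from 664, 341, 510 and 184 CPM in sham to 6668, 3248 and 7190 CPM at UUO-7 in PDGFR-β+ cells (log2 change 3.73 ± 0.77, SE, adjusted p = 0.00106). Every UUO-7 library lay above every sham library. miR-434-3p, made from the next hairpin along, rose from 105, 47.0, 82.0 and 20.2 CPM to 915, 535 and 1273 CPM (3.83 ± 0.84, adjusted p = 0.00157).

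Its 5′ partner miR-434-5p went from 14.6, 6.64, 0.943 and 5.70 CPM to 257, 116 and 318 CPM (4.94 ± 1.07). miR-136-3p rose from 36.3, 11.6, 25.5 and 7.45 CPM to 294, 132 and 219 CPM (3.38 ± 0.77). The smallest called change belonged to miR-3071-3p, from 19.6, 6.08, 7.07 and 2.19 CPM to 97.1, 29.9 and 42.4 CPM (2.61 ± 0.89, adjusted p = 0.0214). Groups did not overlap for any of these 3, and the share of all loci without overlap is not given here.

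The largest fitted changes were in members that were almost unseen in sham PDGFR-β+ cells. miR-433-3p had 2, 0, 0 and 0 counts in the sham libraries and 69, 74 and 54 counts at UUO-7, equal to 17.9, 21.3 and 26.0 CPM (fitted log2 change 6.95 ± 1.42). Its summed share of the libraries was 191 times higher at UUO-7, with an exact 95% counting interval from 52.2 to 1589.6. miR-540-3p had 12, 0, 11 and 0 counts in sham and 378, 124 and 344 counts at UUO-7 (5.79 ± 1.39, adjusted p = 0.00283). The other arm of its hairpin, miR-540-5p, was the member that did not pass (1.68 ± 1.21, adjusted p = 0.264) and passed in no comparison between groups or cell types.

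Calls came from all 3 stretches, which were not compared by a test. Over Rtl1, 8 of 8 tested members were higher, with a median of 3.87, which besides those above included miR-431-5p (3.90 ± 0.82), known for repressing Pax7 in muscle stem cells, and miR-127-5p (5.14 ± 1.16). Between Meg3 and Rtl1, 4 of 5 were higher, with a median of 3.68, among them miR-673-5p (3.32 ± 0.72), miR-673-3p (3.68 ± 1.05) and miR-3544-3p (4.53 ± 1.01). In the Rian intron both were higher, miR-341-3p by 3.86 ± 0.86 and miR-370-3p by 4.64 ± 1.36. The sham PDGFR-β+ libraries together held 7 counts of miR-127-5p, 39 of miR-341-3p and 7 of miR-370-3p. The miRNAs further along the domain, from miR-379 to miR-410, moved the same way, with 34 of 39 tested higher and a median of 5.07.

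**Figure D3:**
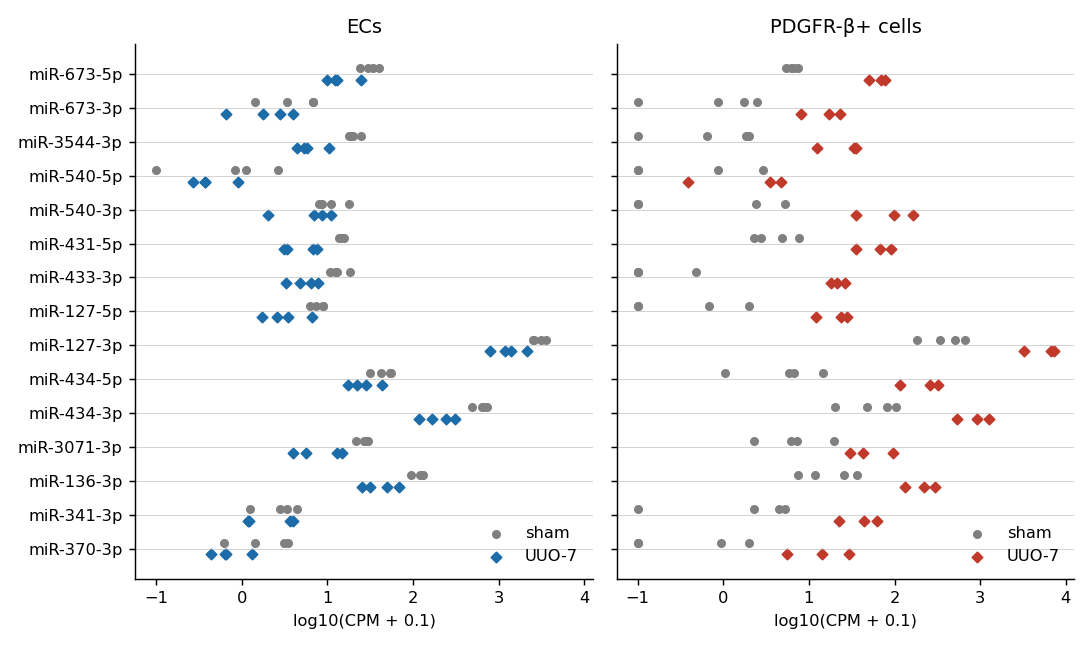
Level of each of the 15 tested members in sham (grey circles) and UUO-7 (coloured diamonds) libraries of ECs and PDGFR-β+ cells, as log10 of CPM plus 0.1, with one point per library and members in chromosomal order. In PDGFR-β+ cells most diamonds lie right of the circles, and those of miR-540-5p overlap them. In ECs no diamond lies right of the rightmost circle of its row.

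The count for PDGFR-β+ cells at UUO-7 stayed between 13 and 15 when any library was left out. miR-3071-3p no longer passed without sham mouse 2, 3 or 4 or without UUO-7 mouse 2 (adjusted p = 0.0520 to 0.0977). Endothelial markers in the PDGFR-β+ libraries were lower at UUO-7 (618 to 1586 CPM) than in sham (2041 to 2588 CPM), while macrophage markers were higher (273 to 698 CPM against 53.0 to 171 CPM), with none of either list's loci at 0. Their part in the rise was not tested.

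None of the 15 members was called in PDGFR-β+ cells at UUO-2, where 6.29% of the 477 loci tested were called in either direction. miR-127-3p measured 227, 511, 322 and 409 CPM there, within the sham range, a log2 change of -0.15 ± 0.68 (adjusted p = 0.952). The lowest adjusted p of a member was 0.182, for miR-433-3p, the 1 member with an unadjusted p under 0.05, and DESeq2 also called 0. Of the 477 loci tested, 107 had an unadjusted p under 0.05 by edgeR.

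In ECs the region went the other way. All 14 tested members had a negative log2 change at UUO-7 against sham, from -1.55 to -0.14 with a median of -1.12, while the median of all loci was -0.05. The 4 that passed were miR-3544-3p, miR-434-3p, miR-136-3p and miR-433-3p, where 5.33% of the 469 loci tested were lower. miR-434-3p fell from 493, 740, 673 and 638 CPM to 118, 168, 309 and 241 CPM (-1.52 ± 0.44, adjusted p = 0.0282). miR-3544-3p fell from 20.0, 24.6, 18.6 and 17.9 CPM to 4.37, 5.27, 10.4 and 5.74 CPM (-1.55 ± 0.45, adjusted p = 0.0282).

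Neither overlapped between groups, and the share of all loci without overlap in ECs is not given here. miR-136-3p fell by 1.35 ± 0.44 on the log2 scale and miR-433-3p by 1.20 ± 0.36. miR-127-3p did not overlap either, at 789, 1178, 2130 and 1383 CPM against 2535, 3608, 2551 and 3113 CPM, but did not pass (-1.02 ± 0.41, adjusted p = 0.0996). The 4 calls became 0 without sham mouse 1, 2 or 4 or UUO-7 mouse 2 or 5 and 1 without sham mouse 3 or UUO-7 mouse 3. DESeq2 called 7 members and a fit of these groups alone called 8. The stromal marker list in ECs was at 11309 to 24337 CPM in sham and 8168 to 17398 CPM at UUO-7, the proximal tubular list at 5249 to 6266 CPM and 2345 to 3738 CPM and the macrophage list at 20.1 to 60.2 CPM and 110 to 193 CPM, and their part in these changes was not tested.

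At UUO-2 in ECs all 14 log2 changes were negative too, from -1.06 to -0.14, and none was called (1.71% of the loci tested were). Between R-UUO and UUO-7 all 14 were positive, with a median of 0.77 and none called (1.07% of loci). Between R-UUO and sham 10 of 14 were negative and none was called (16.8% of loci). The R-UUO ECs were the most spread, with miR-127-3p at 953, 3317, 550 and 2636 CPM, which is an overlap with both sham and UUO-7. By edgeR 4, 6 and 2 of the 14 members had an unadjusted p under 0.05 in these comparisons, against 62, 115 and 160 of the 469 loci tested. DESeq2 called 0, 1 and 0 members.

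**Figure D4:**
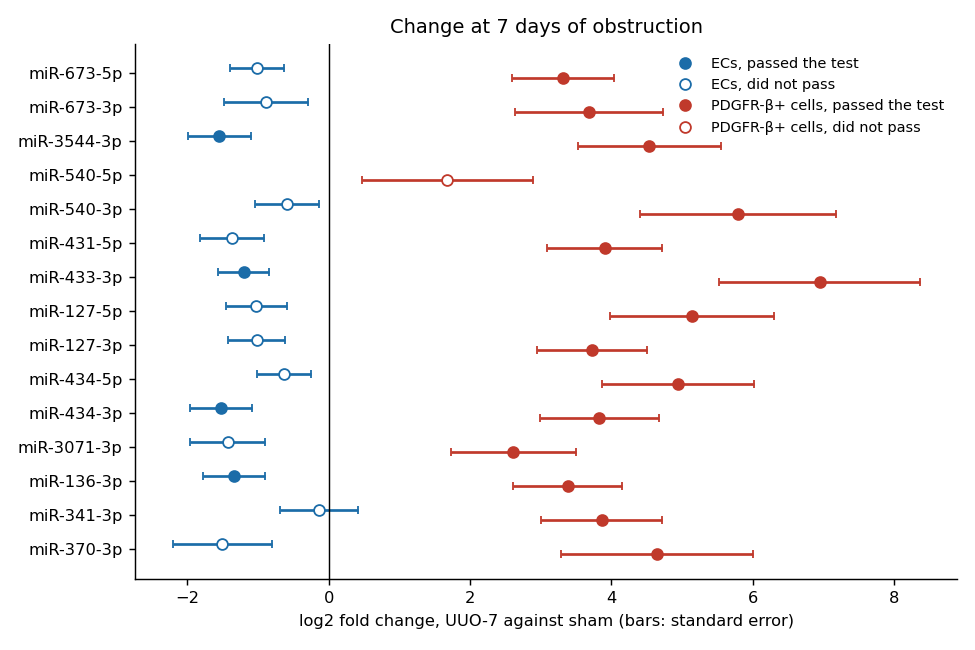
Log2 fold change at UUO-7 against sham (horizontal axis, bars show the standard error) for each tested member in ECs (blue) and PDGFR-β+ cells (red), filled where the test was passed. All 14 EC values are below 0 and all 15 PDGFR-β+ values above it. miR-433-3p in PDGFR-β+ cells, at 6.95, rests on 2 counts in the sham libraries.

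The difference in response between the cell types was tested directly. The change from sham to UUO-7 was larger in PDGFR-β+ cells than in ECs for 14 of 15 members, where 22.4% of the 671 loci passed in that direction, and smaller for none. The differences in log2 change ran from 3.12 to 8.25 with a median of 5.38, against 0.55 for all loci, and miR-540-5p did not pass (3.12 ± 1.62, adjusted p = 0.162). For miR-127-3p the difference was 4.85 ± 1.13 (adjusted p = 0.000673) and for miR-434-3p 5.44 ± 1.08. The number was 14 or 15 without any one library, with the mouse as a replicate block, and without mice U7 3 and R-UUO 1.

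The order of the cell types was therefore opposite at UUO-7 and in sham. At UUO-7, 13 of 15 members were higher in PDGFR-β+ cells than in ECs (27.6% of loci were), with a median log2 difference of 2.59. miR-370-3p had the largest (4.54 ± 1.09), followed by miR-341-3p (4.08 ± 0.77), both from the Rian intron. Both were low in the UUO-7 EC libraries, which together held 12 counts of miR-370-3p and 48 of miR-341-3p. miR-127-3p differed by 2.06 ± 0.80 (adjusted p = 0.0343), but did not pass under DESeq2 (adjusted p = 0.0865) or without PDGFR-β+ mouse 2 or 5 or EC mouse 2, 3 or 5. With the mouse as a replicate block, 14 members were higher. At UUO-2, 3 members were lower in PDGFR-β+ cells (13.4% of loci were), miR-3544-3p, miR-127-3p and miR-434-3p. In R-UUO none was called in either direction (30.4% of loci were). There 0 members had an unadjusted p under 0.05 by edgeR, against 257 of the 671 loci tested, and DESeq2 called 0. The 3 calls at UUO-2 became 0 without PDGFR-β+ mouse 1 or 3 or without EC mouse 3, and 1 without PDGFR-β+ mouse 2.

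**Figure D5:**
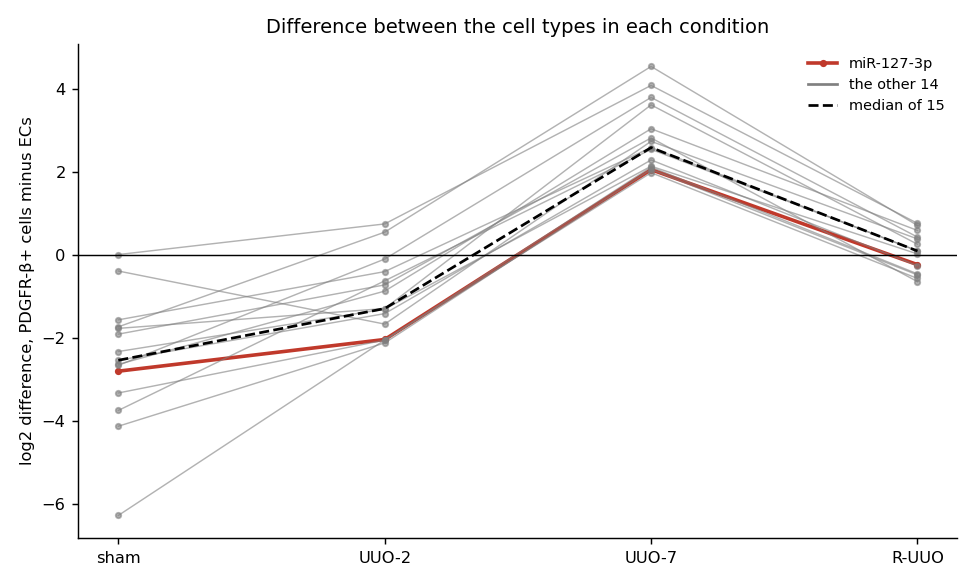
Log2 difference between PDGFR-β+ cells and ECs (vertical axis) in each condition for the 15 tested members, with miR-127-3p in red and the median dashed. The miR-127-3p line runs from -2.79 in sham to 2.06 at UUO-7 and -0.23 in R-UUO. The lowest sham point, miR-433-3p, rests on 2 counts in PDGFR-β+ cells.

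After reversal the PDGFR-β+ libraries split. miR-127-3p measured 4750 CPM in R-UUO mouse 1 and 702, 657 and 249 CPM in mice 2, 4 and 5, and miR-434-3p measured 956 CPM against 119, 120 and 38.0 CPM. For both miRNAs the library of mouse 1 lay within the UUO-7 range, and the other 3 lay below every UUO-7 library. Its stromal marker level, 92519 CPM, was the lowest of the PDGFR-β+ libraries, and its endothelial (465 CPM), macrophage (121 CPM) and proximal tubular (1219 CPM) marker levels were each the lowest of the R-UUO group. The part of these differences in its level was not tested.

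With all 4 R-UUO libraries, 7 of 15 members were higher than in sham (27.9% of loci were), miR-433-3p, miR-127-5p, miR-434-5p, miR-3544-3p, miR-434-3p, miR-136-3p and miR-127-3p, with log2 changes from 1.93 to 4.84. Without mouse 1 none was higher, and without sham mouse 2, 3 or 4 the number was 3, 4 and 4. Against UUO-7 all 15 log2 changes were negative, with a median of -1.79, and 0 were called (3.98% of loci were). By edgeR 8 members had an unadjusted p under 0.05, as did 84 of the 477 loci tested, while DESeq2 called 1 member. Without mouse 1, 14 of 15 were lower than at UUO-7, and 5 were lower than in R-UUO ECs. The share of all loci called without mouse 1 is not given here, so these counts cannot be set against it.

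In Macs and PT cells the highest levels at UUO-7 came from a single mouse. miR-127-3p measured 24.7, 513, 26.1 and 64.1 CPM in UUO-7 Macs and 26.2, 189, 30.3 and 26.1 CPM in UUO-7 PT cells, and the high value in both came from UUO-7 mouse 3, whose PDGFR-β+ library the study had removed. The stromal marker list in these libraries was 3144 CPM in Macs, the lowest of the 4 UUO-7 Macs, and 7451 CPM in PT cells, against 7031 to 18215 CPM in that group. Endothelial markers stood at 605 CPM in the Macs, also the lowest of the group, and 918 CPM in the PT cells, the highest of theirs. In Macs miR-143-3p, most of the stromal sum, was at 1894 to 4832 CPM in sham and 2700 to 4148 CPM at UUO-7. miR-145a-5p was at 9.57 to 30.6 CPM and 18.4 to 39.9 CPM in that order. For miR-199a-3p the ranges were 72.4 to 109 and 273 to 359 CPM, for miR-199a-5p 10.7 to 15.0 and 31.1 to 42.2 CPM. For miR-214-3p they were 1.59 to 3.29 and 26.6 to 42.2 CPM. In PT cells the stromal list was at 1617 to 3496 CPM in sham, below every UUO-7 library. All its members but miR-199a-3p (94.6 to 115 CPM in sham and 98.6 to 206 CPM at UUO-7) lay above the sham range in every UUO-7 library. The proximal tubular list was at 99999 to 130406 CPM in sham and 33870 to 54344 CPM at UUO-7. The part of these markers in the high levels of mouse 3, and in the UUO-7 levels of PT cells, was not tested.

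With all libraries, 2 of 4 tested members were higher in Macs at UUO-7 than in sham (26.3% of loci were), miR-434-5p (4.13 ± 1.19, adjusted p = 0.00833) and miR-127-3p (3.15 ± 1.01, adjusted p = 0.0150), and their groups overlapped. miR-434-5p had only 5, 0, 0 and 2 counts in the sham Mac libraries and 1, 80, 1 and 21 counts at UUO-7. Without UUO-7 mouse 3 neither passed, at 2.60 for miR-434-5p (adjusted p = 0.0961) and 0.89 for miR-127-3p (adjusted p = 0.372). miR-127-3p also did not pass without sham mouse 1 or 3 (2.75 and 2.66, adjusted p = 0.0560 and 0.0562), and the number was 4 without sham mouse 4, the sham Mac library highest in miR-127-3p. In PT cells 1 of 2 tested members was higher (25.5% of loci were), miR-127-3p (2.31 ± 0.73, adjusted p = 0.0170). It did not pass without UUO-7 mouse 3 (0.98, adjusted p = 0.146) or without sham mouse 4 (2.04, adjusted p = 0.0562). Its groups did not overlap in TMM-scaled CPM, with at most 24.4 CPM in sham and at least 26.1 CPM at UUO-7. The region's unscaled share did overlap, at 0.00566% in sham mouse 1 and 0.00316% in UUO-7 mouse 2. For PT cells the share of all loci without overlap is not given here.

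No member was called in the other comparisons of these cells. In R-UUO, miR-127-3p measured 96.2, 38.5, 17.0 and 78.8 CPM in Macs and 52.6, 18.7, 77.1 and 28.6 CPM in PT cells, where the library of R-UUO mouse 1 had more stromal than proximal tubular marker miRNA, and 0 members were called without it too. In Macs 27.6% of loci were called at UUO-2 against sham, 19.9% in R-UUO against UUO-7 and 31.9% in R-UUO against sham. In PT cells the shares were 19.1%, 1.52% and 38.8%. The members with an unadjusted p under 0.05 in these 6 comparisons were miR-434-5p in R-UUO Macs (log2 change 3.08, adjusted p = 0.0646) and miR-127-3p in R-UUO PT cells (1.75, adjusted p = 0.0635), both against sham, and DESeq2 called 1 member in each of these. Of all loci tested, 212 of 457 in Macs and 177 of 330 in PT cells had such a p by edgeR in R-UUO against sham.

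Members moved together from library to library within a cell type. Across the 16 EC libraries the median Spearman correlation of a member with miR-127-3p was 0.86 over 13 members, against 0.08 over 426 loci outside the domain, and after subtraction of each condition's mean it was 0.77 against 0.03. Across the 15 PDGFR-β+ libraries it was 0.75 over 14 members against 0.17 over 423 other loci, and 0.66 against -0.03 after subtraction. For the miR-379 to miR-410 side the medians were 0.76 in ECs and 0.68 in PDGFR-β+ cells. Levels of one library share its depth and scaling, and these correlations are a description.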

How the data were processed

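Small RNA libraries of 4 sorted kidney cell types were analysed from the table of raw counts per mature miRNA locus that the authors deposited. Per the labels and the study's methods, the authors trimmed reads with Trim Galore 0.4.1 and cutadapt 1.1 and aligned them to GRCm38 with ShortStack, which uses Bowtie, against miRBase 22 loci. The handling of strand and of reads with several matches is not given in the sources used here. The column of totals was not used.

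Counts were tested with edgeR 4.0.16 (R 4.3.3), with TMM factors, filterByExpr and the quasi-likelihood test, in one fit per cell type over its 4 conditions and in one fit of all 63 libraries for contrasts between cell types. Benjamini-Hochberg adjustment ran over all loci tested. The SE of an edgeR log2 change was derived from the test, as the absolute log2 change divided by the square root of its F statistic. Alternatives were library size alone, DESeq2 1.42.0, no filter, the compared groups alone, a replicate block and each library left out. Gene positions came from GENCODE M21. Members, marker lists and tests were chosen with earlier results of these data known. Levels in single libraries are given for the 5 members with most counts in part of the groups only. They are also given, per cell type, for at most the 2 largest called changes at UUO-7 without overlap. Code was tested on simulated data. Replicates were separate mice, no pair of libraries was a duplicate, and the cell types of 1 mouse share the animal (median correlation of deviations 0.04 over 93 pairs). The reported edgeR contrasts between cell types did not use this pairing, and the mouse as a replicate block was an alternative. The arm ratios were paired by mouse.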

Additional observations from a re-analysis of the deposited data

Results flagged for a closer look

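Single libraries stood far from the others of their group of 4 in 19 of the 90 combinations of group and measure examined (the region's share and the CPM of the 5 most abundant members). The rule flags about 1 in 20 only where values are normally distributed. A group at 0 apart from 1 library is always flagged, so the 19 do not measure an excess over chance. R-UUO mouse 1 stood above the other PDGFR-β+ libraries in the share of the region (0.577%) and in miR-127-3p (4750 CPM), miR-434-3p (956 CPM), miR-434-5p (251 CPM), miR-136-3p (238 CPM) and miR-3071-3p (92.8 CPM). These measures move together and are not independent. UUO-7 mouse 3 stood above its group in Macs for the share (0.122%), miR-127-3p (513 CPM) and miR-434-3p (57.0 CPM), and in PT cells for the share (0.0280%) and miR-127-3p (189 CPM).

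The remaining values were at low levels or less far out. Sham mouse 4 was high among Macs for miR-127-3p (64.1 CPM), miR-136-3p (3.00 CPM) and miR-3071-3p (0.177 CPM, which is 1 count). UUO-2 mouse 3 was high among ECs for miR-136-3p (85.9 CPM). Among PT cells, sham mouse 1 was high for the share (0.00566%), sham mouse 3 for miR-434-5p (0.770 CPM), and R-UUO mouse 1 for miR-434-5p (1.86 CPM) and miR-3071-3p (0.619 CPM).

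The change from sham to UUO-7 differed between PDGFR-β+ cells and ECs, by edgeR's test of the difference itself, for 14 members. In log2 units the change was larger in PDGFR-β+ cells by 8.25 for miR-433-3p, 6.45 for miR-540-3p, 6.29 for miR-127-5p, 6.27 for miR-370-3p, 6.18 for miR-3544-3p, 5.67 for miR-434-5p, 5.44 for miR-434-3p, 5.38 for miR-431-5p, 4.85 for miR-127-3p, 4.82 for miR-136-3p, 4.72 for miR-673-3p, 4.46 for miR-673-5p, 4.15 for miR-3071-3p and 4.07 for miR-341-3p.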

How the results depend on the processing

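The numbers of members called in PDGFR-β+ cells at UUO-7 against sham, between PDGFR-β+ cells and ECs in sham and at UUO-7, and in the test of the difference in change stayed within 1.5 times under every alternative run, and no called direction reversed. Other counts moved, and their causes were not tested. The share of all loci called under each alternative is not given here. In the next sentences the count with the reported settings is given in parentheses. With DESeq2 there were 7 members lower in UUO-7 ECs (4), 1 higher in R-UUO than UUO-7 ECs (0), 1 higher in R-UUO than sham Macs (0) and PT cells (0), and 1 lower in R-UUO than UUO-7 PDGFR-β+ cells (0). Without a filter on low counts there were 3 lower in UUO-2 ECs (0), 3 higher in R-UUO than UUO-7 ECs (0), 6 higher in UUO-7 Macs (2), 4 higher (0) in R-UUO than sham Macs and 1 lower than at UUO-7 (0), 2 higher in R-UUO than sham PT cells (0), 2 higher in UUO-2 PDGFR-β+ cells (0), 12 lower in R-UUO than UUO-7 PDGFR-β+ cells (0), 12 higher (7) and 1 lower (0) than sham, and 6 lower in PDGFR-β+ cells than ECs at UUO-2 (3). Fitting the compared groups alone gave 1 lower in UUO-2 ECs (0), 8 lower in UUO-7 ECs (4), 1 higher in UUO-7 Macs (2), 1 higher in R-UUO than sham PT cells (0) and PDGFR-β+ cells (7), 6 lower in PDGFR-β+ cells than ECs at UUO-2 (3), and in sham PDGFR-β+ cells 4 higher than Macs (11) and 2 higher than PT cells (8). Leaving out mice U7 3 and R-UUO 1 together, chosen after seeing the data, gave 0 higher in R-UUO than sham PDGFR-β+ cells.

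Replicate numbers did not pair mice of different conditions (correlation of deviations from -0.36 to 0.28, over 0.1 in 3 of 74 pairs). With the number as a replicate block there was 1 higher in UUO-7 Macs (2), 1 higher in R-UUO than sham Macs (0), 2 in PT cells (0), and in R-UUO PDGFR-β+ cells 4 lower than UUO-7 (0) and 3 higher than sham (7). The mouse as a replicate block kept every count between PDGFR-β+ cells and ECs within 1.5 times, at 11 lower in sham and 14 higher at UUO-7.

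Leaving out each library in turn gave ranges of 0 to 4 lower in UUO-7 ECs, 0 to 1 lower in R-UUO than sham ECs and 0 to 1 higher than UUO-7, 0 to 4 higher in UUO-7 Macs, 0 to 2 in R-UUO Macs, 0 to 1 in UUO-7 PT cells, 0 to 1 in R-UUO PT cells, 0 to 9 higher in R-UUO than sham PDGFR-β+ cells, 0 to 14 lower than UUO-7, and, for PDGFR-β+ cells below ECs, 0 to 3 at UUO-2 and 0 to 5 in R-UUO. The single EC calls in R-UUO came without mouse 2 (against sham) and without mouse 4 (against UUO-7), the 2 in R-UUO Macs without sham mouse 4, and the 1 in R-UUO PT cells without R-UUO mouse 2 or sham mouse 1.

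Among arm ratios, a pseudocount of 5 in place of 0.5 took differences past the threshold for Mir127 (0.76), Mir136 (0.60) and Mir434 (0.85), at least 10 counts per arm did so for Mir136 (0.59) and Mir434 (0.94), and omitting the sham mice did so for Mir434 (0.81). Counting all 38 loci moved no group's share by more than its SD. Depth limits the members under the floor of 3 counts, above all in PT cells.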

Other observations

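Among other imprinted miRNAs, 3 of the 5 tested were higher in PDGFR-β+ cells at UUO-7, where 34.0% of the 477 loci tested were higher. There, miR-298-5p (log2 change 4.65, adjusted p = 7.73e-06), miR-296-3p (3.18, adjusted p = 7.98e-05) and miR-296-5p (2.95, adjusted p = 0.0198), which lie at the Gnas domain, were higher than in sham by edgeR's quasi-likelihood test. miR-335-5p (0.12, adjusted p = 0.884) and miR-335-3p (0.59, adjusted p = 0.529), from the Mest gene, did not pass. miR-298-5p was also higher at UUO-7 in ECs (1.06, adjusted p = 0.0166), Macs (3.44, adjusted p = 0.000115) and PT cells (3.84, adjusted p = 0.000156).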
